A study of Mus musculus with 63 samples.

Results

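The 7 genes described here, Upk3b, Upk1b, Msln, Krt7, Krt8, Krt18 and Krt19, are marker genes of the ovarian surface epithelium, and they were taken by gene name from the 34745 genes of the ovary expression table. Each of the 7 names matched 1 row, and all 7 were among the 17766 genes with enough reads to be tested. RNA was sequenced from ovaries of C57BL/6 mice under chronic unpredictable mild stress (CUMS), in which small stressors change from day to day, and from unstressed control mice. The ovary libraries fall into 8 groups, which are CUMS and control ovaries in each of 4 sets, named in the titles by an age of 2 or 6 months (2M, 6M) and a duration of 8 or 12 weeks (8W, 12W). Every group has 4 libraries except the 6M-12W controls with 3, so that 16 CUMS libraries stand against 15 controls. The design text of the series joins 2 months with 8 weeks and 6 months with 12 weeks, while the titles hold all 4 combinations, and the titles were followed here. The titles do not say when that age was reached, and 12 weeks is longer than 2 months. Groups with the same age label may therefore differ in age at collection as well as in duration. Whether each library is from a separate animal is not stated in the labels, so p-values measure the spread between these samples, which may in part be technical. How the oviduct and the fat around the ovary were trimmed is not given in the sources used here.

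The ovarian surface epithelium is the thin mesothelial cell layer that covers the ovary and is opened and repaired at each ovulation. It shares uroplakins, mesothelin and the keratins of simple epithelia with the peritoneal mesothelium. Keratins 7, 8, 18 and 19 are also made by the epithelium of the oviduct, which lies against the ovary and is easily taken along in dissection. Foxj1, the master regulator of motile cilia, marks the ciliated cells of the oviduct and was therefore followed in the same libraries.

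Total counts ran from 12536371 to 28777668 per ovary library. Levels are given as CPM, the count of a gene scaled by the total count of its library. Foxj1 was below 5 CPM in 26 of the 31 libraries, and in 16 of these it was below 1 CPM. The 5 libraries above that limit were 2M-8W CUMS 1 with 98.1 CPM, 2M-8W CUMS 3 with 23.2 CPM, 2M-12W CUMS 2 with 8.47 CPM, 2M-12W control 3 with 25.5 CPM and 2M-12W control 4 with 10.4 CPM. All of the Foxj1-rich libraries were thus from the sets labelled 2M. In 2M-8W CUMS 1 the summed level of 19 motile cilia genes was 644 CPM and that of 4 secretory oviduct genes was 1961 CPM, against medians over the 31 libraries of 58.3 CPM and 14.9 CPM. A low Foxj1 level did not always go with low secretory genes: their sum was 100 CPM in 6M-8W CUMS 1 and 104 CPM in 6M-12W control 1, where Foxj1 was 0.989 CPM and 1.26 CPM.

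All 7 genes were detected in every ovary library, with 133 counts (Upk1b in 2M-8W control 4) as the lowest. On the per-length scale of the deposited FPKM values, the median level over the 31 libraries was highest for Krt8 at 22.5 FPKM and Krt18 at 22.1 FPKM. Krt19 at 17.9 FPKM, Upk1b at 17.8 FPKM, Upk3b at 15.4 FPKM and Msln at 11.5 FPKM followed. Krt7 was the lowest of the 7 at 4.27 FPKM. Library 2M-8W control 4 held the lowest level of 6 of the 7 genes among the ovary libraries, the exception being Krt8, which was lowest in 6M-8W CUMS 3. The highest level of Krt7, Krt8, Krt18, Krt19 and Msln was in 2M-8W CUMS 1, the library with the most Foxj1.

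**Figure D1:**
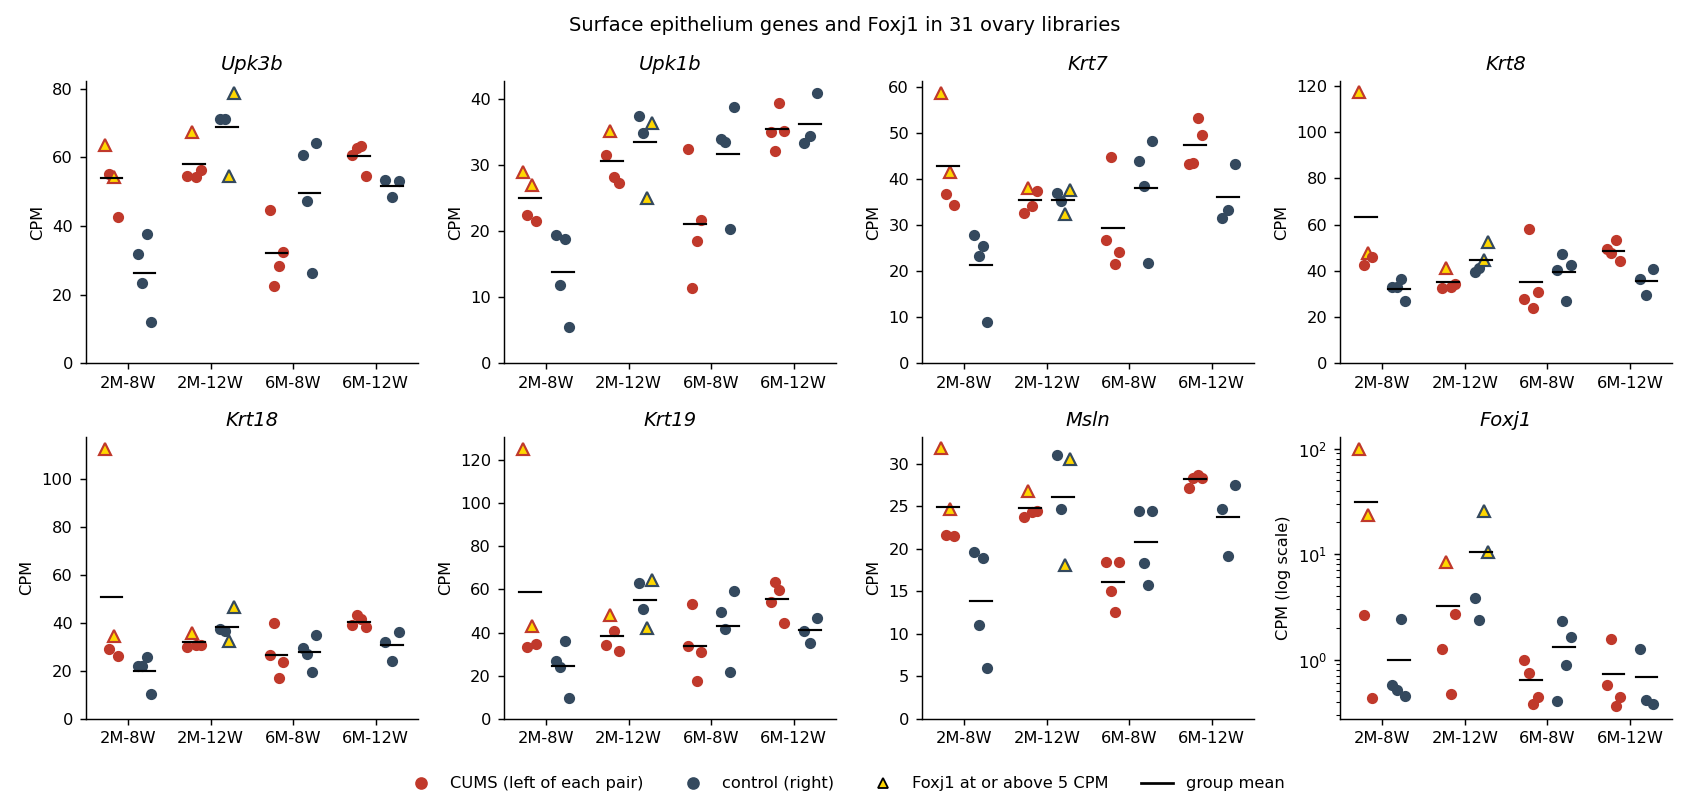
Level in CPM (vertical axis, log scale for Foxj1 only) of each of the 7 genes and of Foxj1 in every ovary library, with CUMS left of control in each set, a bar at the group mean, and triangles for libraries with Foxj1 at or above 5 CPM. The keratins Krt8, Krt18 and Krt19 reach 118, 113 and 125 CPM in the library 2M-8W CUMS 1, and 2M-8W control 4 lies at the bottom for 6 of the 7 genes.

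In the 2M-8W ovaries most surface epithelium genes were higher under stress. The uroplakin Upk3b, a membrane protein of the urothelial plaque that in the ovary marks the mesothelial surface, averaged 53.9 ± 8.58 CPM in CUMS ovaries and 26.1 ± 11.2 CPM in controls (SD, n = 4 each), a log2 fold of 1.02 ± 0.25 (SE). Mesothelin and the keratins 7, 8, 18 and 19 rose as well, by log2 folds of 0.82 to 1.31. The adjusted p (edgeR's quasi-likelihood test, Benjamini-Hochberg over all genes) was under 0.05 for 6 of the 7 genes, and the 7th, Upk1b, had a fold of 0.82 and missed it. Among all genes tested, 3.96% were called higher in this comparison. In a bulk sample a larger number of surface cells and more RNA per cell cannot be told apart.

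Upk3b (ENSMUSG00000042985, plus strand of chromosome 5, 136038496 to 136046487 in build GRCm38) had 63.6, 55.2, 54.2 and 42.7 CPM in the 4 CUMS ovaries, against 31.8, 23.3, 37.6 and 11.8 CPM in the 4 controls. The groups did not overlap. Foxj1 in the same libraries was 98.1, 2.65, 23.2 and 0.429 CPM in CUMS ovaries, against 0.576, 0.518, 2.45 and 0.449 CPM in controls. The CUMS ovaries below 5 CPM of Foxj1, at 55.2 and 42.7 CPM of Upk3b, also lay above every control, but CUMS 4 alone of the CUMS ovaries was below the highest control in Foxj1. Its adjusted p by edgeR's quasi-likelihood test was 0.0221. Upk1b (ENSMUSG00000049436, minus strand of chromosome 16, 38773184 to 38800203), a tetraspanin that pairs with Upk3b in the uroplakin plaque, had 28.9, 22.4, 27.0 and 21.6 CPM in CUMS ovaries, against 19.4, 11.9, 18.7 and 5.43 CPM in controls. These groups did not overlap either, yet the adjusted p of 0.0703 (edgeR) missed the threshold. Msln (ENSMUSG00000063011, minus strand of chromosome 17, 25748614 to 25754327) encodes mesothelin, the surface glycoprotein of mesothelial cells. It had 31.9, 21.6, 24.6 and 21.5 CPM in CUMS ovaries, against 19.6, 11.0, 18.9 and 5.96 CPM in controls. Every CUMS library was above every control for Msln, by the smallest margin between 21.5 and 19.6 CPM, with an adjusted p of 0.0405 (edgeR).

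Among the keratins, the type II keratins 7 and 8 and the type I keratins 18 and 19 join as pairs into the intermediate filaments of simple epithelia, with Krt8 and Krt18 as the usual partners. Krt7 (ENSMUSG00000023039, plus strand of chromosome 15, 101411043 to 101430313) had 58.8, 36.7, 41.6 and 34.4 CPM in 2M-8W CUMS ovaries, against 27.8, 23.2, 25.5 and 8.90 CPM in controls. The groups did not overlap, and the log2 fold was 0.98 ± 0.26 with an adjusted p of 0.0288 (edgeR). The other 3 keratins had another shape, with 1 CUMS library far above the rest. Krt8 (ENSMUSG00000049382, minus strand of chromosome 15, 101996711 to 102004342) had 118, 42.6, 47.9 and 46.0 CPM in CUMS ovaries, against 33.2, 32.8, 36.5 and 26.7 CPM in controls. Krt18 (ENSMUSG00000023043, plus strand of chromosome 15, 102028216 to 102032026) had 113, 29.2, 34.5 and 26.1 CPM in CUMS ovaries, against 22.0, 22.1, 25.6 and 10.3 CPM in controls. Krt19 (ENSMUSG00000020911, minus strand of chromosome 11, 100140810 to 100148665) had 125, 33.1, 42.8 and 34.7 CPM in CUMS ovaries, against 26.9, 24.1, 36.3 and 9.56 CPM in controls. For Krt8 and Krt18 the CUMS libraries all lay above the controls, while for Krt19 control 3 lay above 2 CUMS libraries. The log2 folds were 0.94 ± 0.26 for Krt8, 1.31 ± 0.34 for Krt18 and 1.26 ± 0.38 for Krt19. Their adjusted p-values by edgeR's quasi-likelihood test were 0.0322, 0.0256 and 0.0486. In all, 6 of the 7 genes were higher in every CUMS library than in every control of this set, a pattern shown by 5.59% of all genes tested.

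Krt8 and Krt18 lie head to head on chromosome 15, with 23874 bases between them. Their promoter windows are shown with that of Upk3b because the slope on the Foxj1 level was called for the 2 keratins and not for Upk3b, as described further on. Windows run from 250 bases before to 50 bases after the start (RefSeq, GRCm38.p6, given 5′ to 3′ on the gene's own strand), and RefSeq windows were found for 4 of the 7 genes. Capitals mark any of 5 motifs searched on both strands. These were the TATA box as TATAAA, the Sp1 site as GGGCGG, the AP-1 site as TGANTCA, the forkhead factor site as GTAAACA and the grainyhead factor site as AACCGGTT. Upk3b is at chr5:136038246-136038545 on the plus strand, Krt8 at chr15:102004293-102004592 on the minus strand and Krt18 at chr15:102027966-102028265 on the plus strand.
Upk3b: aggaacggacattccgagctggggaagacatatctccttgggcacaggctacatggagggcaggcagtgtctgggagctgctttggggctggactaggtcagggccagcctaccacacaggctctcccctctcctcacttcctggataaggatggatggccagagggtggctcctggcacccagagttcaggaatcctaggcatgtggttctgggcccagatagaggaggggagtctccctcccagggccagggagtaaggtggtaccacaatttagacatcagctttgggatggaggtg
Krt8: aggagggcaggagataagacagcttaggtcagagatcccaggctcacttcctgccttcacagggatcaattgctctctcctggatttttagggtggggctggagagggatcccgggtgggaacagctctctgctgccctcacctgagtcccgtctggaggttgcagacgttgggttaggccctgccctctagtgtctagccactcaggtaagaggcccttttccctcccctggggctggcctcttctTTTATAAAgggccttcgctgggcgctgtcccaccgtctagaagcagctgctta
Krt18: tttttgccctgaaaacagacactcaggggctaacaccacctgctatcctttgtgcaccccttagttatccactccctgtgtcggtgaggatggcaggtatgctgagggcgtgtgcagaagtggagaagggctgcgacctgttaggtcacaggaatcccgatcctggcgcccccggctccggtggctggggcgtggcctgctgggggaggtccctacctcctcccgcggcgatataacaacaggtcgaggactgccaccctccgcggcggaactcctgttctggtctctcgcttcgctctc
In these windows TATAAA occurred in Krt8, from bases 248 and 250 of the window, with overlapping matches on opposite strands. These matches begin at -3 and -1 from the annotated start, so they span the start itself. Whether they act as a TATA box was not tested. No motif was matched in Upk3b or Krt18. Of 32851 promoter windows of that length, TATAAA was held by 13.6%, GGGCGG by 35.7%, TGANTCA by 7.81%, GTAAACA by 3.65% and AACCGGTT by 0.146%. The counts of Krt8 and Krt18 are uncertain to the degree that reads were shared with near copies: Krt8-ps is 98.6% identical over 941 bases and Gm5200 is 90.2% identical to Krt18 over 1269 bases. Krt7 overlaps the gene Gm671 by 1269 bases and Krt8 overlaps Gm36026 by 131 bases. Without stated use of strand the reads of such pairs cannot be told apart. By gene identifier the ovary table has no row for Krt8-ps, Gm5200, Gm671 or Gm36026, so their own counts could not be seen.

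With the Foxj1-rich libraries left out, the 2M-8W differences shrank by unequal amounts. The comparison then rested on 2 CUMS ovaries and 4 controls, with 1 gene of 17865, or 0.0056%, called. The log2 fold of Upk3b was then 0.90 ± 0.32, close to the 1.02 over all libraries, with an unadjusted p of 0.00991 and an adjusted p of 0.361 (edgeR). Upk1b at 0.66 ± 0.35, Krt7 at 0.73 ± 0.32 and Msln at 0.63 ± 0.29 also kept most of their size. Krt8 at 0.44 ± 0.24, Krt18 at 0.46 ± 0.28 and Krt19 at 0.48 ± 0.39 stood well below their folds over all libraries. None of the 7 passed the adjusted threshold in edgeR's quasi-likelihood test, and 3, Upk3b, Krt7 and Msln, had an unadjusted p under 0.05. All 7 folds remained above 0. With the lower limit of 1 CPM of Foxj1, 1 CUMS ovary, CUMS 4, was left in this set, and the fold of Upk3b was 0.93 ± 0.47 with an adjusted p of 0.864 (edgeR).

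With all libraries kept and the Foxj1 level as a covariate, the 2M-8W folds were 0.81 for Upk3b, 0.66 for Upk1b, 0.65 for Msln and 0.74 for Krt7, each with an unadjusted p under 0.05. They were 0.44 for Krt8, 0.53 for Krt18 and 0.57 for Krt19. For the 2M-8W comparison no gene of the table was called in that fit, and the lowest adjusted p among the 7 was 0.292 (edgeR). Without the single library 2M-8W CUMS 1 the log2 folds were 0.48 for Krt8, 0.56 for Krt18 and 0.59 for Krt19, 0.80 for Krt7 and 0.94 for Upk3b, and none of the 7 was called. Without 2M-8W control 4 they were 0.85 for Krt8, 1.08 for Krt18, 0.98 for Krt19, 0.71 for Krt7 and 0.76 for Upk3b. Calls of the 7 genes also fell to 0 without control 2 or without control 4, and to 3 without CUMS 3. A fit to the libraries of this set alone called 0 of the 7 and 2 genes in all. Calls over all tested genes fell too, from 1113 with every library to 114 without CUMS 1, 45 without control 2 and 36 without control 4. Without control 2 the log2 folds were 0.96 for Upk3b and 1.35 for Krt18. With both the Foxj1-rich libraries and 2M-8W control 4 left out, the fold was 0.65 ± 0.27 for Upk3b and lay between 0.21 and 0.47 for the other 6 genes.

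**Figure D2:**
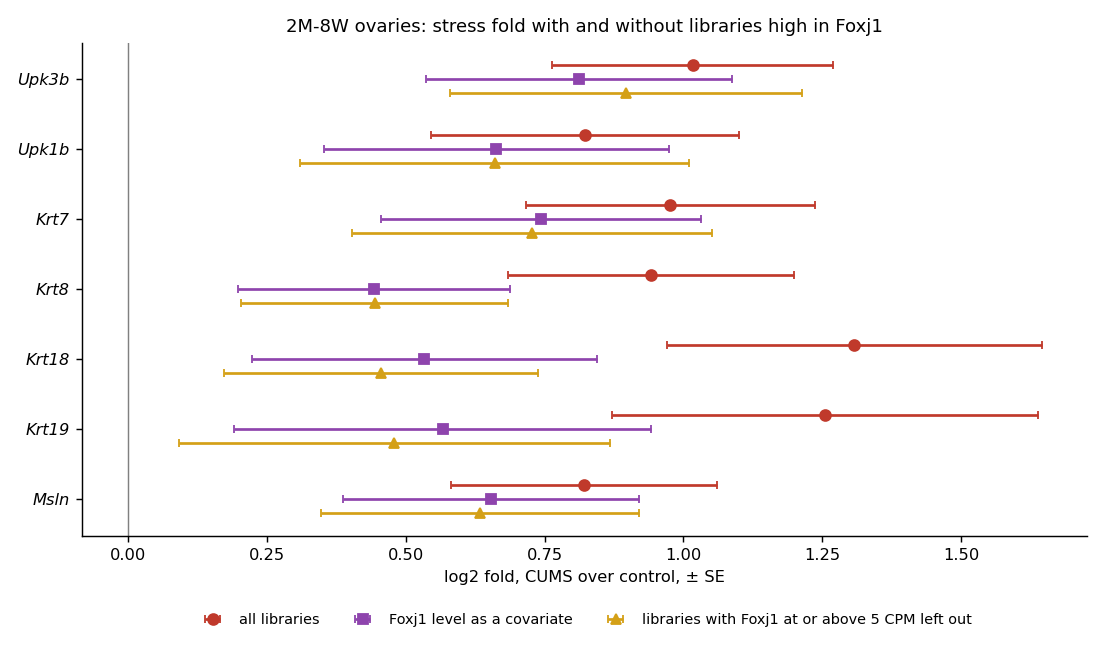
Log2 fold of CUMS over control in the 2M-8W ovaries (horizontal axis, ± SE from edgeR) for the 7 genes, over all libraries (circles), with the Foxj1 level as a covariate (squares) and without libraries at or above 5 CPM of Foxj1 (triangles). Upk3b moves from 1.02 to 0.90 without those libraries, while Krt18 moves from 1.31 to 0.46.

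Other genes of the 2M-8W ovaries moved beside these 7. Of 18 tested motile cilia genes 15 rose, with a median log2 fold of 3.34 over the 18; Hydin, a protein of the central pair of the cilium, had 6.22 ± 1.23. Of 4 secretory oviduct genes 2 rose, Ovgp1, the oviductal glycoprotein, by 5.35 ± 1.47 and the transcription factor Pax8 by 4.80 ± 1.16. General epithelial genes rose in 9 of 14, among them Epcam with 1.46 ± 0.32 and Cdh1 with 2.23 ± 0.53. Of 9 further genes of surface epithelium and mesothelium 1 rose, the transcription factor Bnc1, by 0.81 ± 0.21 with an adjusted p of 0.0256 (edgeR), and the median over the 9 was 0.73. Among the rest, Gpm6a had 0.73, Muc16 had 1.02 and Nkain4 had -0.06. The median fold over all tested genes was -0.0028. Adipocyte genes had a median fold of 2.07 with 0 of 5 called by edgeR. The luteal genes Lhcgr and Prlr fell by 1.60 and 0.89, and the endothelial gene Pecam1 fell by 0.60. Summed over the luteal list of 4 genes, the groups overlapped, with 449 to 2339 CPM in CUMS ovaries and 1112 to 2404 CPM in controls. The endothelial list of 5 genes summed to 326 to 364 CPM in CUMS ovaries and 380 to 471 CPM in controls.

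Summed over the 7 genes, the level was 227 to 539 CPM in the 2M-8W CUMS ovaries and 78.8 to 199 CPM in controls. The 19 cilia genes summed to 61.4 to 644 CPM in CUMS ovaries and 48.2 to 69.1 CPM in controls, and the 4 secretory genes to 6.05 to 1961 CPM and 5.84 to 27.9 CPM. In 2M-8W CUMS 4, the CUMS ovary with the least Foxj1 at 0.429 CPM, the secretory sum of 6.05 CPM was within the range of the controls. The 7 genes in that library were each above the mean of the 4 controls, with Upk3b at 42.7 CPM and Krt18 at 26.1 CPM.

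Across all 31 libraries, the slope of each gene on the log2 Foxj1 level within groups was positive for all 7 genes, and 2 were called. Krt18 gained 0.19 ± 0.05 log2 units per log2 unit of Foxj1, with an adjusted p of 0.0145 (edgeR). Krt8 gained 0.13 ± 0.04, with an adjusted p of 0.0372. Krt19 had a slope of 0.18 ± 0.06 with an adjusted p of 0.0887, and Krt7 had 0.07 ± 0.05. The slopes were 0.07 ± 0.04 for Upk3b, 0.05 ± 0.05 for Upk1b and 0.05 ± 0.04 for Msln, with adjusted p-values of 0.561, 0.735 and 0.660. Among all genes tested 3.96% had a called positive slope. With the mean log2 level of the cilia list in place of Foxj1 the same 2 keratins were called. That list holds Foxj1 itself, so this is not an independent check. The difference between the slopes of 2 genes was not tested.

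The called slopes rested on few libraries. Without 2M-8W CUMS 1 the slope was 0.08 for Krt18, 0.06 for Krt8 and 0.07 for Upk3b, and none was called. Calls also fell to 0 without 2M-8W CUMS 2 or CUMS 4, and to 1 without 2M-8W control 3, 2M-8W control 4, 6M-8W control 2, 2M-12W CUMS 2, 2M-12W control 1 or 2M-12W control 4. Among the 26 libraries with Foxj1 below 5 CPM no slope of the 7 was called by edgeR and none had an unadjusted p under 0.05. The values ran from 0.06 to 0.14, with 0.084% of all genes called. The highest of them, 0.14, was that of Upk3b, so in these libraries no keratin had a steeper slope than Upk3b. Over all 31 libraries other genes gave the scale: 16 of 18 motile cilia genes and 4 of 4 secretory oviduct genes had called positive slopes. So did 8 of 14 general epithelial genes, 4 of 5 adipocyte genes and 0 of 9 further surface epithelium and mesothelium genes by edgeR's adjusted p. The cilia list holds Foxj1 itself, whose slope on its own level is positive by construction.

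**Figure D3:**
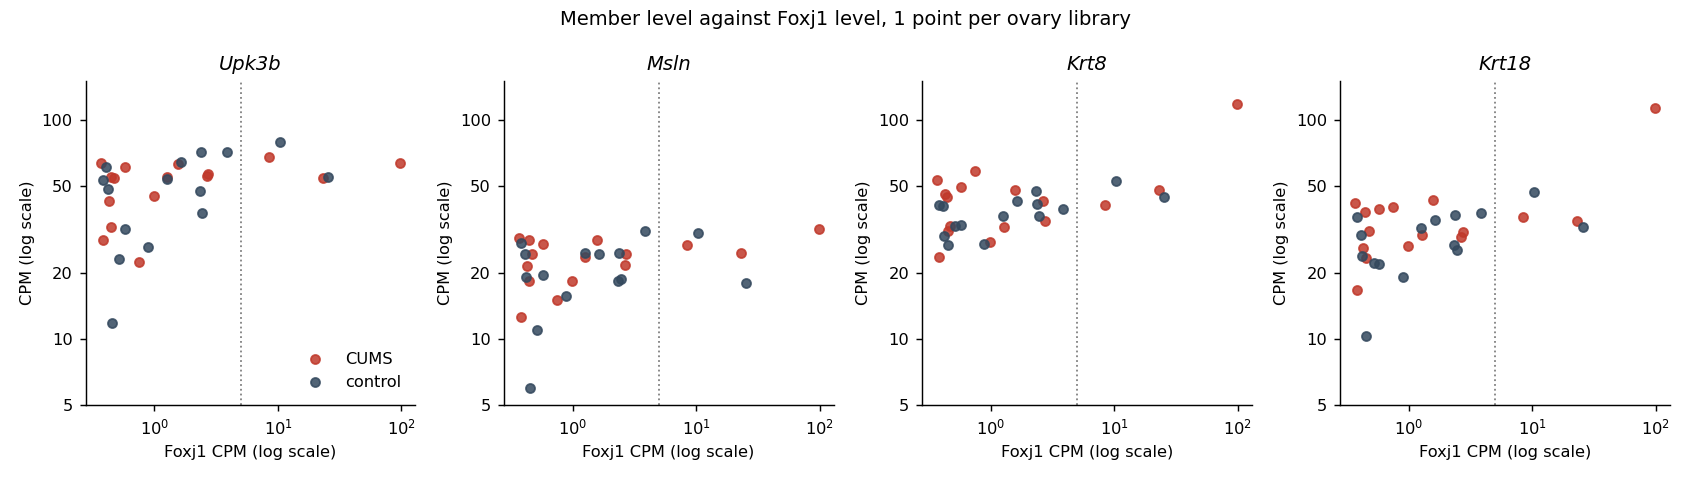
Level of Upk3b, Msln, Krt8 and Krt18 (CPM, log scale) against the Foxj1 level (CPM, log scale) in the 31 ovary libraries, with a dotted line at 5 CPM of Foxj1. At 98.1 CPM of Foxj1, Krt8 and Krt18 stand at 118 and 113 CPM, above all other libraries. Msln at 31.9 CPM is also at its highest there, while Upk3b at 63.6 CPM lies within the range of libraries with little Foxj1.

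The 2M-12W ovaries, where the Foxj1-rich libraries were mostly controls, gave no called change in the 7 genes. Upk3b had 54.7, 67.4, 54.3 and 56.3 CPM in CUMS ovaries, against 71.1, 71.3, 54.6 and 78.9 CPM in controls. The groups overlapped, and the log2 fold was -0.29 ± 0.25. Krt18 had 29.8, 35.8, 30.9 and 30.7 CPM in CUMS ovaries, against 37.4, 36.8, 32.5 and 46.7 CPM in controls. Its fold of -0.31 ± 0.33 came with overlapping groups too. Folds of the 7 genes ran from -0.56 (Krt19) to -0.04 (Krt7), 0 were called by edgeR or DESeq2 and 0 had an unadjusted p under 0.05, where 6.74% of all genes were called. Control 3 of this set, with 25.5 CPM of Foxj1, was the lowest control for Upk3b, Upk1b (25.0 CPM), Msln (18.1 CPM), Krt7 (32.3 CPM), Krt18 (32.5 CPM) and Krt19 (42.2 CPM), and the second highest for Krt8 (44.6 CPM). With the 3 Foxj1-rich libraries of the set left out, the folds were -0.38 for Upk3b and -0.30 for Krt18.

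In the 6M-8W ovaries all 7 folds were below 0 and none was called. Upk3b had 44.7, 22.6, 28.4 and 32.3 CPM in CUMS ovaries, against 60.8, 47.3, 26.3 and 64.2 CPM in controls, and its log2 fold was -0.61 ± 0.25. The groups overlapped because control 3 was low. Upk1b had 32.4, 11.4, 18.5 and 21.7 CPM in CUMS ovaries, against 33.9, 33.5, 20.4 and 38.8 CPM in controls, a fold of -0.56 ± 0.27. These 2 uroplakins had an unadjusted p under 0.05, with adjusted p-values of 0.233 and 0.322 (edgeR), and DESeq2 called 0 of the 7. The percentage called among all genes was 1.12%. The other 5 folds lay between -0.35 (Krt7) and -0.03 (Krt18). No library of this set reached 5 CPM of Foxj1.

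Within this set the uroplakins and the keratins parted in 1 library. In 6M-8W CUMS 2, Upk3b at 22.6 CPM and Upk1b at 11.4 CPM were the lowest of their group, while Krt7 at 44.8, Krt8 at 58.2, Krt18 at 40.0 and Krt19 at 53.2 CPM were the highest of their group. Its ratio of Krt18 to Upk3b, 1.77, was as high as in the Foxj1-rich 2M-8W CUMS 1, also 1.77, against a median of 0.601 over all libraries. Foxj1 was 0.744 CPM in 6M-8W CUMS 2, and the cilia genes summed to 51.8 CPM, below the median over all libraries. Its secretory sum was 70.0 CPM, Ovgp1 was at 63.4 CPM and Cdh1 at 27.8 CPM, while Cdh1 lay between 8.12 and 10.9 CPM in the other 3 CUMS ovaries of the set. The part of these genes in the result was not tested. Without this library the 6M-8W folds were -0.46 for Upk3b, -0.62 for Krt7, -0.49 for Krt8 and -0.28 for Krt18, and none was called.

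**Figure D4:**
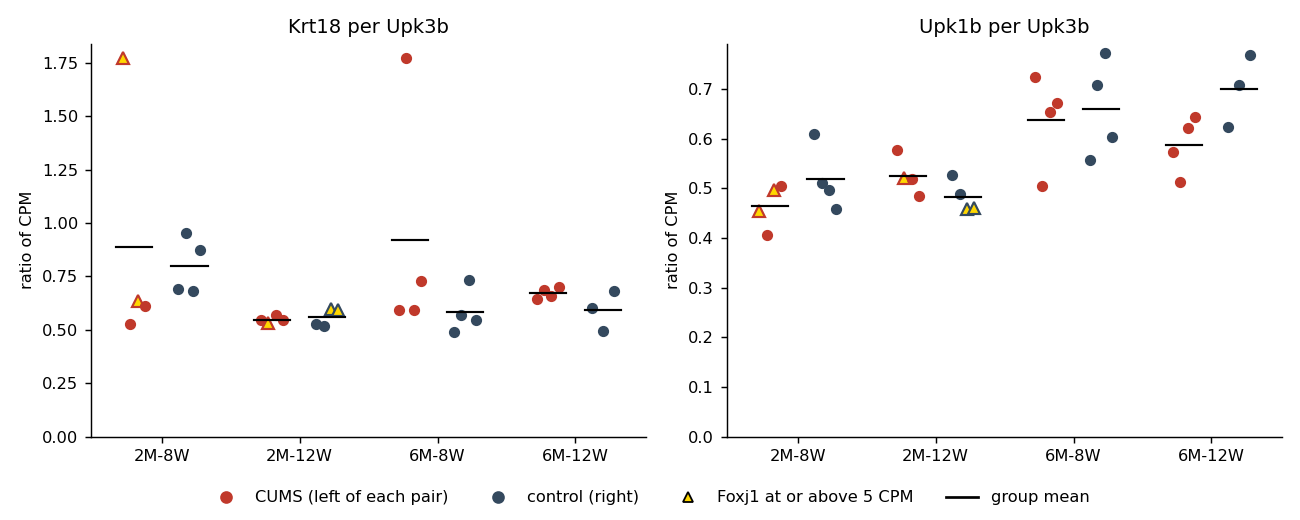
Ratio of the CPM of Krt18 to that of Upk3b (left) and of Upk1b to Upk3b (right) in each ovary library, with CUMS left of control in each set, bars at group means and triangles for libraries with Foxj1 at or above 5 CPM. The libraries 2M-8W CUMS 1 and 6M-8W CUMS 2 stand at 1.77 on the left, and on the right the ratio runs from 0.406 to 0.610 in 2-month ovaries and from 0.505 to 0.773 in 6-month ovaries.

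The 6M-12W ovaries gave small differences. Upk3b had 60.9, 62.7, 63.3 and 54.6 CPM in CUMS ovaries, against 53.4, 48.5 and 53.2 CPM in controls. Krt8 had 49.5, 47.6, 53.1 and 44.4 CPM in CUMS ovaries, against 36.3, 29.6 and 40.7 CPM in controls. Krt18 had 39.2, 43.1, 41.6 and 38.1 CPM in CUMS ovaries, against 32.1, 24.0 and 36.2 CPM in controls. For these 3 genes every CUMS library lay above every control, as it did for 18.4% of all genes tested. The log2 folds were 0.18 ± 0.27 for Upk3b, 0.41 ± 0.28 for Krt8 and 0.36 ± 0.36 for Krt18. Over the 7 genes the folds ran from -0.08 (Upk1b) to 0.41 (Krt8). In this set 0 of 7 were called by edgeR or DESeq2 and 0 had an unadjusted p under 0.05, with 11.4% of all genes called. Foxj1 was at most 1.56 CPM in these 7 libraries.

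**Figure D5:**
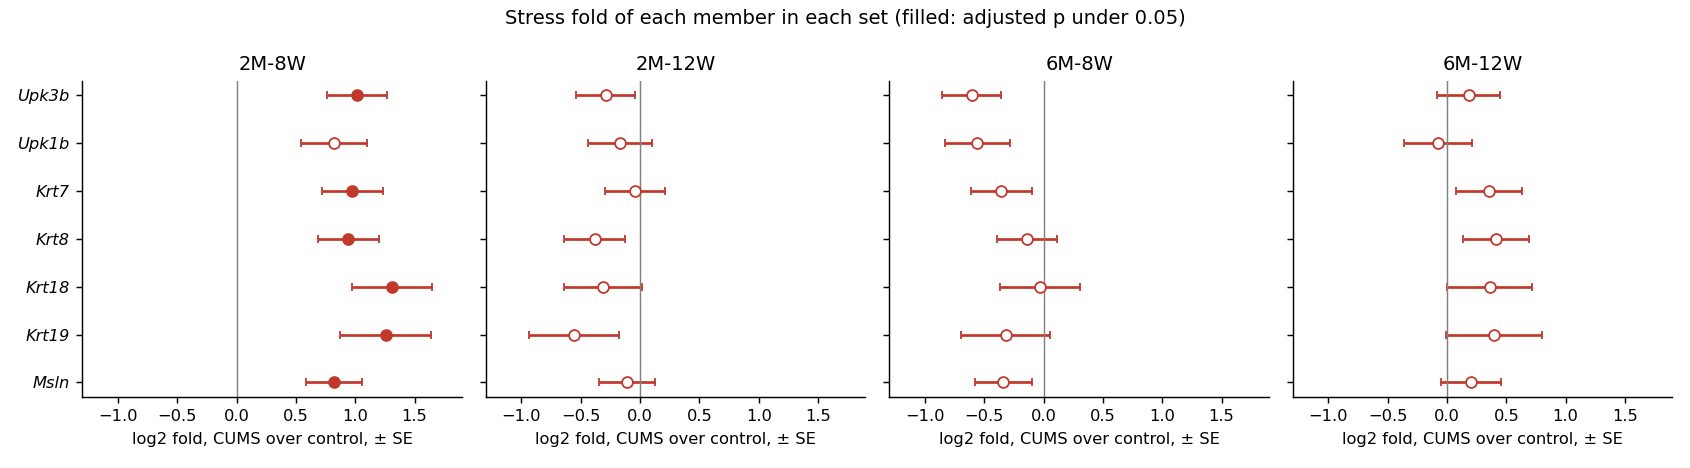
Log2 fold of CUMS over control (horizontal axis, ± SE from edgeR) of the 7 genes in each of the 4 sets, with filled points for an adjusted p under 0.05. Filled points appear in the 2M-8W set for all but Upk1b, and folds are below 0 for all 7 genes in the 2M-12W and 6M-8W sets.

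Averaged over the 4 sets, the stress effect on the 7 genes was small. Log2 folds of the mean effect ran from 0.00 (Upk1b) to 0.33 (Krt18), and 0 of 7 were called by edgeR, by DESeq2 or at an unadjusted p under 0.05, where 20.3% of all genes were called. Over the same mean, 2 of 2 theca genes and 2 of 6 granulosa genes rose, while 4 of 6 stromal genes and 3 of 4 luteal genes fell. Examples, picked for the smallest p in this contrast, were Insl3 of theca cells with 1.09 ± 0.21, Inha of granulosa cells with 0.46 ± 0.12 and the stromal collagen gene Col3a1, which fell by 0.62.

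Stress effects were also compared directly between ages and between durations. The 6M effect minus the 2M effect at 8 weeks was -1.62 ± 0.36 (log2) for Upk3b and lay between -1.58 and -1.08 for the other 6 genes. All 7 had an unadjusted p under 0.05 and 0 passed the adjusted threshold of edgeR, with adjusted p-values of 0.0810 to 0.159 and 0 of all genes (0%) called. DESeq2 called 4 of the 7, Upk3b, Upk1b, Krt7 and Msln, and 541 genes in all. Without 2M-8W CUMS 4, 6M-8W CUMS 1 or 6M-8W control 3, edgeR called 2 of the 7. Without the Foxj1-rich libraries the difference was -1.50 ± 0.41 for Upk3b, -1.22 ± 0.45 for Upk1b, -0.59 ± 0.31 for Krt8 and -0.49 ± 0.37 for Krt18, with 0 of the 7 and 0.0056% of all genes called by edgeR and 4 of the 7 at an unadjusted p under 0.05. At 12 weeks the difference ran from 0.10 (Upk1b) to 0.95 (Krt19), with 0 called by either tool, 0% of all genes called by edgeR, and 1 gene of the 7 at an unadjusted p under 0.05.

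Between durations, the 12W effect minus the 8W effect at 2 months was -1.31 ± 0.35 for Upk3b, -1.62 ± 0.47 for Krt18 and -1.81 ± 0.54 for Krt19. All 7 again had an unadjusted p under 0.05 and 0 were called by edgeR, the lowest adjusted p being 0.0720 and the percentage of all genes called 0.501%. DESeq2 called 4 of the 7, Upk3b, Krt8, Krt18 and Krt19, and 401 genes in all. Of the 7 genes, edgeR called 3 without 2M-8W CUMS 2 and 4 without 2M-8W CUMS 4. Both comparisons use the 2M-8W ovaries, so they share 4 CUMS and 4 control libraries. At 6 months the difference between durations ran from 0.39 (Krt18) to 0.79 (Upk3b), with 0 of 7 called by either tool, 1 at an unadjusted p under 0.05, and 8.74% of all genes called.

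Set beside the other groups, the 2M-8W controls were the low end. Their mean was the lowest of the 8 group means for all 7 genes, and for 6 of 7, all but Msln, without control 4. Upk3b means were 58.2 ± 6.21 CPM in 2M-12W CUMS ovaries and 69.0 ± 10.3 CPM in their controls (n = 4 each). They were 32.0 ± 9.40 CPM in 6M-8W CUMS ovaries and 49.7 ± 17.2 CPM in their controls (n = 4 each). They were 60.3 ± 3.97 CPM in 6M-12W CUMS ovaries (n = 4) and 51.7 ± 2.75 CPM in their controls (n = 3). For Upk3b the 2M-8W CUMS mean of 53.9 CPM lay inside the range of the other groups, as it did for Upk1b, Msln and Krt7. For Krt8 at 63.5 CPM, Krt18 at 50.6 CPM and Krt19 at 59.0 CPM it was the highest of the 8 group means. With the groups ordered by their Upk3b mean, the gap between neighbours was smaller than the larger of their SDs at 6 of 7 steps, and the same held at 6 of 7 steps for Upk1b, Msln and Krt18 and at 7 of 7 for Krt7, Krt8 and Krt19.

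In unstressed ovaries age made no called difference to the 7 genes. The 6M minus 2M control difference ran from -0.02 (Krt8) to 0.66 ± 0.20 (Upk1b) on the log2 scale, with an adjusted p of 0.191 (edgeR) for Upk1b. Of the 7 genes 2 had an unadjusted p under 0.05, 0 were called by edgeR or DESeq2, and 0.287% of all genes were called. The ratio of Upk1b to Upk3b was 0.505 to 0.773 in the 15 6-month ovaries and 0.406 to 0.610 in the 16 2-month ovaries, so these ranges overlap.

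Across the 31 libraries the uroplakins and Msln varied more alike with each other than with Krt8. By Pearson r of log2 CPM, Upk3b was most like Rspo1 (0.928), a secreted activator of Wnt signalling, and Msln (0.927), followed by Bnc1 (0.922) and Upk1b (0.921). The tight junction gene Cldn15 (0.915), Lrrn4 (0.914), Wnt2b (0.898), Chrm4 (0.885), Pkhd1l1 (0.881), Plxna4 (0.876), Emx2os (0.857) and Sv2a (0.850) completed the 10 most alike genes outside the 7, with predicted genes, Rik genes and pseudogenes left out. The keratins stood lower, with r of 0.788 for Krt19, 0.786 for Krt7, 0.720 for Krt18 and 0.462 for Krt8, which ranked 748th of all genes. Foxj1 had an r of 0.420 with Upk3b.

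Among the keratin pairs r was highest between Krt18 and Krt19 (0.954), Krt7 and Krt19 (0.894) and Krt8 and Krt18 (0.875). Not every keratin pair was closer than a keratin was to Msln. Krt7 had 0.726 with Krt8 and 0.857 with Msln, but 0.858 with Krt18 and 0.894 with Krt19. The lowest r among the 21 pairs was 0.286, between Krt8 and Upk1b. In the 26 libraries below 5 CPM of Foxj1 the values were 0.956 for Krt18 with Krt19, 0.936 for Upk3b with Msln and 0.452 for Upk3b with Krt8. There Krt18 had 0.773 with Krt8 and 0.866 with Msln, but 0.925 with Krt7. These libraries share sets, treatment and any handling by group, so the r values are a description only.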

How the data were processed

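Per the labels, ovary RNA was isolated by a chloroform method and sequenced from NEBNext Ultra II libraries. For each gene the authors deposited raw read counts and FPKM, in which the count is divided by gene length and library total. Neither aligner nor counting program, strand setting or annotation is named in the sources used here. Gene positions in the deposited table are those of build GRCm38. Where the count was at least 10, 100.0% of 507823 deposited FPKM values lay within 1% of the count scaled by library total and 1 length per gene. FPKM served only to compare levels between genes. No 2 libraries of a group, in 45 pairs, agreed within counting noise (lowest chi-square divided by its degrees of freedom, 10.5).

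The 31 ovary libraries, of 12536371 to 28777668 counts, were fitted in 1 model with 8 groups. Genes passing filterByExpr (17766 of 34745) were tested in R 4.3.3 by the quasi-likelihood F test of edgeR 4.0.16, with TMM factors of 0.961 to 1.06 and a biological coefficient of variation of 0.207. Calls are at a Benjamini-Hochberg adjusted p under 0.05 over all tested genes. Folds are log2 CUMS over control, and an SE is the fold divided by the square root of F. The contrasts were the stress effect in each set and as the mean of the 4 sets, its differences between ages and between durations, and age in controls. The slope on log2(Foxj1 CPM + 0.1) was fitted beside the 8 groups. CPM values are scaled by the library total, and the r values use log2(CPM + 0.1). The pipeline was tested on simulated counts.

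Alternatives were DESeq2 1.42.0, RLE factors, no filter, each set alone, the replicate number as a block, the Foxj1 level as a covariate, libraries with Foxj1 at or above 1 CPM left out, the cilia list in place of Foxj1, and each library left out in turn. The limit of 5 CPM, and leaving out 2M-8W control 4 with it, were chosen after seeing the data. The 7 genes and the marker lists were chosen with earlier results of these data known. Genes named beside the 7 are Foxj1, the 2 of each marker list with the smallest p in the mean of the 4 sets, list genes past the threshold where one of the 7 was called, and the 10 genes most like Upk3b. Gpm6a, Muc16, Nkain4 and the uncalled values of other list genes were named after their values were seen. Of 21 cilia genes 19 had a row by symbol and 18 were tested. Near copies were found with blastn 2.17.0 against GENCODE transcripts, at 90% identity or more over at least 300 bases. Pituitary libraries were not used here.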

Additional observations from a re-analysis of the deposited data

Results flagged for a closer look

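In each group of 4 libraries, the highest or lowest value of the 7 genes was compared with its group, and 5 of 56 groups held a library apart from the others by Dixon's 95% limit, where chance flags about 1 group in 20. These 56 groups are the 7 genes and Foxj1 in the 7 groups of 4 libraries. In 2M-8W CUMS 1, Krt8 was at 118 CPM while the other 3 CUMS ovaries lay between 42.6 and 47.9 CPM. In the same library Krt18 was at 113 CPM and Krt19 at 125 CPM. Foxj1 was at 98.1 CPM in this library, and its part in the 3 keratin levels was not tested apart from the fits on the Foxj1 level. In 2M-12W CUMS 2, Upk3b was at 67.4 CPM while the other 3 lay between 54.3 and 56.3 CPM. In 2M-8W control 3, Foxj1 was at 2.45 CPM while the other 3 controls lay between 0.449 and 0.576 CPM.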

How the results depend on the processing

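Of the 7 genes, 6 were called in the 2M-8W comparison. That count was 0 in the fit to this set alone, 0 with Foxj1 as a covariate, 0 without libraries at or above 1 CPM of Foxj1, 0 without those at or above 5 CPM, and 0 without these and 2M-8W control 4. At the 1 CPM limit the CUMS arm is 1 library, assumed to vary like the other groups, with 2 genes of 18220 called in all, so that count says nothing about stability. DESeq2 called 7 of the 7 and 1699 genes in all, and leaving out 1 library gave 0 to 7 by edgeR. The other sets kept 0 calls, except 1 (Krt8) in the 6M-12W set fitted alone. For the age difference at 8 weeks DESeq2 called 4 and leaving out 1 library gave 0 to 2. For the duration difference at 2 months DESeq2 called 4 and leaving out 1 library gave 0 to 4. The slope on Foxj1, with 2 calls, gave 0 without libraries at or above 1 CPM, 0 without those at or above 5 CPM, 0 without these and 2M-8W control 4, and 0 to 3 when 1 library was left out. The cause was not tested, beside the smaller number of libraries in each such fit.

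Replicate numbers did not pair the libraries: the correlation of the deviations of same-numbered CUMS and control libraries ran from -0.241 to 0.201. With the replicate block the 2M-8W count was 5, the slope count was 1 and all other counts were 0.

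Over the single genes, 1834 values under alternatives held 1695 with the same direction and side of the threshold, 73 that lost the threshold, 27 that gained it, 39 that changed sign without a call and 0 that reversed a call. Without libraries at or above 1 CPM of Foxj1 all 4 controls of the 2M-12W set are gone, so its stress effect, the mean of the 4 sets, age in controls and the differences that use this set have no value there. At 12536371 counts or more per library, depth gave each of the 7 genes at least 133 counts.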
